A study of Rattus norvegicus with 19 samples.

Results

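The 10 genes described here encode ligands and receptors that build and maintain blood vessels. They are the vascular endothelial growth factor (VEGF) ligands Vegfa, Vegfb, Vegfc and Pgf with the receptors Flt1 and Kdr, and the angiopoietins Angpt1 and Angpt2 with the receptors Tek and Tie1. They were chosen by symbol as a list of angiogenic ligands and receptors. All 10 were among the 17455 genes in the count files and among the 12388 genes that passed a filter on low counts.

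The study measured RNA by sequencing in the left ventricles of Sprague-Dawley rats, with hearts labelled male, to follow a model of heart failure with preserved ejection fraction (HFpEF) and its treatment. The rats were 24 weeks old when the experiment began, and the 19 libraries fall into 7 groups. Control 5w and control 9w (3 libraries each) were rats on normal chow with no L-NAME, sampled at week 5 and at week 9. HFpEF (3 libraries) was sampled at week 5, after 5 weeks of a diet drawing 60% of its kilocalories from fat and of drinking water that held 0.5 g/L of L-NAME, which blocks nitric oxide synthases. The other groups were induced in the same way for 5 weeks, were then gavaged daily for 4 weeks, and were sampled at week 9. Of these, untreated (3 libraries) received saline vehicle, EMPA (2 libraries) received empagliflozin, an inhibitor of the glucose transporter SGLT2, at 0.35 g/kg/day, PFD (2 libraries) received the antifibrotic drug pirfenidone at 0.3 g/kg/day, and EMPA + PFD (3 libraries) received both drugs at these doses. All groups share strain, tissue and starting age, and the model differs from the controls by L-NAME and diet together.

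VEGF-A, released by cardiomyocytes and other cells that sense low oxygen, makes endothelial cells divide and migrate through Kdr, while Flt1 binds it tightly and passes on a weaker signal. The angiopoietins act on vessels that already exist: Angpt1 activates Tek (also called Tie2) and keeps the endothelium quiet and tight, whereas Angpt2, released by activated endothelial cells, often opposes it, and Tie1 modulates Tek. In the heart these signals set how densely capillaries run along the cardiomyocytes, and loss of capillaries is a known feature of HFpEF.

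Library totals ran from 7430539 to 13017754 counts, with a median of 9951011, and values below are CPM, with library totals scaled by trimmed mean of M values. Among the members the smallest count in any library was 21, for Pgf, so Pgf and Angpt1 (lowest count 25) carry more counting error than the others. Although all hearts are labelled male, 7 libraries held 0 counts of the Y-linked gene Eif2s3y: HFpEF 1 and 3, untreated 1, 2 and 3, and PFD 1 and 2. The other 12 libraries held 613 to 1321. Ddx3y, the other Y-linked gene tested, was scarce and did not follow this split throughout. Its log2 fold change was 0.98 ± 0.63 (SE) in untreated against control 9w and -2.24 ± 0.85 in EMPA against untreated, both opposite to the split. In EMPA + PFD against PFD it was 0.92 ± 0.70, in the direction of the split, and none of these passed the test used below. The MHC class I gene RT1-CE16 had at most 3 counts in 8 libraries (every one from EMPA, HFpEF or control 5w), and 308 to 922 in all others. The atrial light chain gene Myl4 reached 19668 counts in untreated 2, 13853 in control 9w 3 and 2702 in control 9w 1, and no more than 436 elsewhere. All libraries were kept under their labels. The comparisons of untreated with control 9w, with EMPA and with EMPA + PFD, and that of PFD with EMPA + PFD, set libraries with Eif2s3y counts against libraries without any, so that treatment or disease cannot be told apart from whatever that split reflects.

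Cardiomyocyte markers were present in every library: the 10 of them, led by Myh6, summed to between 11931 CPM (HFpEF 1) and 106563 CPM (EMPA + PFD 2). This sum does not test the label of left ventricle. Sums of the atrial markers, which include Myl4, reached 25632 CPM in control 9w and 16016 CPM in untreated, against lowest sums of 746 and 1116 CPM in these groups. The 10 endothelial markers, which include the members Tie1 and Kdr and are led by Eng, a receptor of activated endothelium, were detected in every library. Their sum was 2223, 1894 and 2108 CPM in control 5w, 2390, 4554 and 3848 in HFpEF, 5078, 5255 and 4518 in control 9w, 3827, 4750 and 4171 in untreated, 3736 and 2975 in EMPA, 3203 and 3351 in PFD, and 2685, 2301 and 2296 in EMPA + PFD. It was thus lowest in control 5w and in EMPA + PFD and highest in control 9w, and its group means follow the same order as those of Tek below. In bulk tissue, fewer endothelial cells and less RNA per endothelial cell cannot be told apart, and the part of this sum in the members' differences was not tested.

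**Figure D1:**
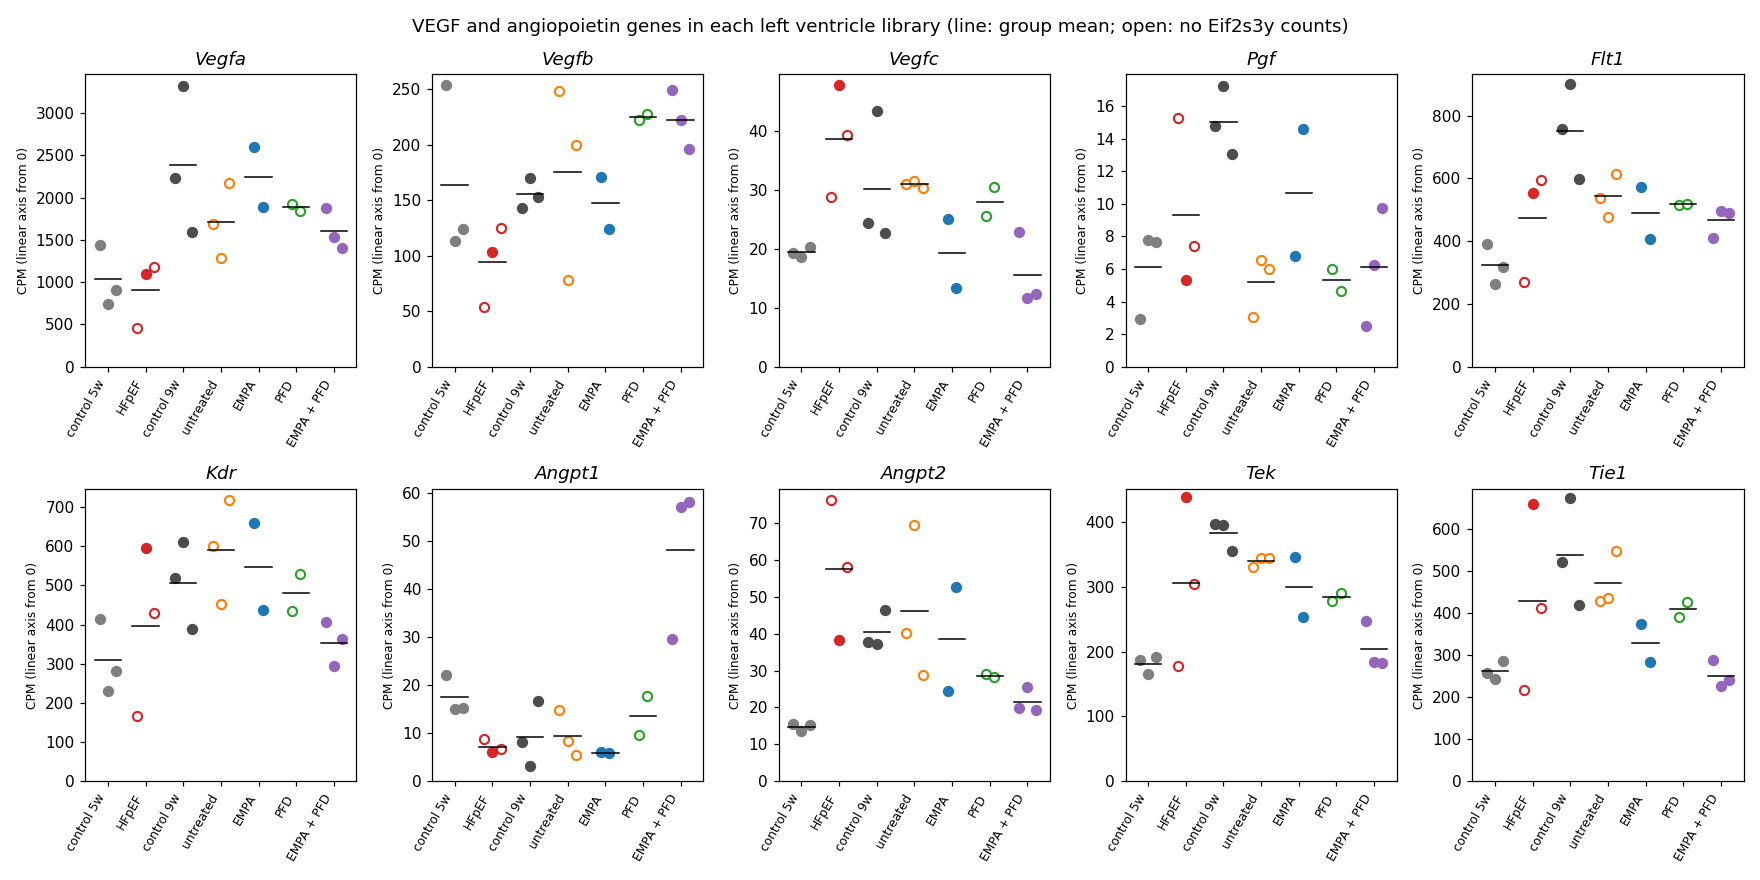
Each panel plots 1 gene in the 19 left ventricle libraries, with CPM on a linear axis from 0, the 7 groups along the horizontal axis, a line at each group mean and open points for the 7 libraries with 0 Eif2s3y counts. Angpt1 in EMPA + PFD (29.6 to 58.2 CPM) lies above all other libraries, and Angpt2 in control 5w (13.6 to 15.5 CPM) lies below all others.

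Over the 7 groups tested together, 7 of the 10 members differed, against 50.3% of all genes tested. A gene is called changed here where its p was under 0.05 in the quasi-likelihood test of edgeR, after adjustment over all 12388 genes by the method of Benjamini and Hochberg, and this value is given below as the edgeR adjusted p. The 7 were Angpt1 (edgeR adjusted p = 0.00245), Angpt2 (0.00437), Tek (0.0160), Vegfc (0.0203), Tie1 (0.0323), Flt1 (0.0347) and Vegfa (0.0357). Pgf (edgeR adjusted p = 0.0968), Vegfb (0.156) and Kdr (0.236) were not called. The count was 4 (Vegfc, Angpt1, Angpt2 and Tek) without control 5w 2 or 3, control 9w 1 or 2, or PFD 1 or 2, and 3 without EMPA + PFD 2 or 3, which removed Vegfc as well. Without the libraries that hold over 1000 Myl4 counts, which leaves control 9w as 1 library with its spread taken from the other groups, it was 4 (Vegfa, Vegfc, Angpt1 and Angpt2). It stayed at 7 with a term for libraries without Eif2s3y counts and was 6, without Vegfa, when the HFpEF libraries lacking them were left out. Only the HFpEF libraries inform the Eif2s3y term, since they alone differ in these counts within a group. The replicate block brought the count of members to 4.

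Vegfa, the principal VEGF ligand, stood at 1443, 745 and 912 CPM in control 5w, 458, 1103 and 1179 in HFpEF, 2239, 3319 and 1596 in control 9w, 1694, 1285 and 2171 in untreated, 2602 and 1890 in EMPA, 1929 and 1840 in PFD, and 1874, 1539 and 1404 in EMPA + PFD. All control 9w libraries lay above all control 5w libraries, and the lowest value belonged to HFpEF 1. Group means ran from 914 ± 396 CPM (SD, n = 3) in HFpEF to 2385 ± 871 in control 9w, a ratio of 2.61, with each group overlapping the next in that order. Vegfb, which binds Flt1 and is abundant in heart and other oxidative muscle, had 254, 113 and 124 CPM in control 5w, 53.6, 103 and 125 in HFpEF, 143, 170 and 153 in control 9w, 248, 78.0 and 200 in untreated, 171 and 124 in EMPA, 222 and 228 in PFD, and 250, 222 and 196 in EMPA + PFD. Its lowest values were HFpEF 1 and untreated 2, which also had the lowest and second lowest cardiomyocyte marker sums (11931 and 20121 CPM); neighbouring groups overlapped throughout.

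Vegfc, the ligand of the lymphatic receptor Flt4 that also binds Kdr, had 19.3, 18.5 and 20.3 CPM in control 5w, 28.8, 47.8 and 39.3 in HFpEF, 24.4, 43.3 and 22.7 in control 9w, 30.9, 31.5 and 30.2 in untreated, 25.0 and 13.4 in EMPA, 25.5 and 30.5 in PFD, and 22.8, 11.7 and 12.3 in EMPA + PFD. The groups fall into a lower set (EMPA + PFD, EMPA and control 5w, with means from 15.6 to 19.4 CPM) and a higher one (PFD, control 9w, untreated and HFpEF, means from 28.0 to 38.6), and control 5w did not overlap PFD, the next in order. Pgf, placental growth factor, binds Flt1 and is scarce in most adult tissues. It had 2.92, 7.76 and 7.64 CPM in control 5w, 15.3, 5.32 and 7.41 in HFpEF, 14.8, 17.2 and 13.1 in control 9w, 3.06, 6.58 and 6.01 in untreated, 6.79 and 14.6 in EMPA, 6.02 and 4.63 in PFD, and 2.48, 6.22 and 9.72 in EMPA + PFD. Control 9w was uniformly high, with a mean of 15.0 ± 2.09 CPM (SD, n = 3), while HFpEF 1 and EMPA 2 stood above the rest of their own groups.

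Flt1, the high-affinity VEGF receptor, had 390, 263 and 319 CPM in control 5w, 271, 554 and 594 in HFpEF, 759, 900 and 598 in control 9w, 539, 478 and 613 in untreated, 573 and 407 in EMPA, 515 and 519 in PFD, and 411, 497 and 491 in EMPA + PFD. Control 5w had the lowest mean and did not overlap EMPA + PFD, the next group by mean, although HFpEF 1 (271 CPM) fell within the control 5w range. Control 9w was highest with a mean of 752 ± 151 CPM (SD, n = 3). Counts per gene do not separate the soluble form of Flt1 from the membrane receptor. Kdr, the main signaling receptor for VEGF-A, had 414, 230 and 282 CPM in control 5w, 166, 594 and 430 in HFpEF, 519, 612 and 390 in control 9w, 601, 453 and 720 in untreated, 659 and 438 in EMPA, 434 and 529 in PFD, and 406, 293 and 363 in EMPA + PFD. HFpEF held both the lowest library (HFpEF 1) and one of the higher ones, and each group overlapped the next from control 5w (mean 309 CPM) to untreated (591). The ratio of Flt1 to Kdr counts was 0.943, 1.14 and 1.13 in control 5w, 1.63, 0.932 and 1.38 in HFpEF, 1.46, 1.47 and 1.53 in control 9w, 0.896, 1.05 and 0.851 in untreated, 0.871 and 0.929 in EMPA, 1.19 and 0.982 in PFD, and 1.01, 1.69 and 1.35 in EMPA + PFD. Control 9w lay above untreated, while HFpEF and EMPA + PFD reached from below to above the control 9w values. Since gene length does not change between libraries, such a ratio can be compared between libraries but does not say which receptor is more abundant.

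Angpt1, the Tek agonist, had 22.2, 15.0 and 15.4 CPM in control 5w, 8.76, 6.14 and 6.70 in HFpEF, 8.23, 3.07 and 16.7 in control 9w, 14.8, 8.28 and 5.37 in untreated, 5.99 and 5.95 in EMPA, 9.53 and 17.8 in PFD, and 29.6, 57.0 and 58.2 in EMPA + PFD. All EMPA + PFD libraries exceeded all other libraries, and the group means spanned a ratio of 8.08, from EMPA to EMPA + PFD. Control 9w varied most, with a coefficient of variation of 73.5%, and its highest library, control 9w 3, was one of those with high Myl4. Angpt2, the context-dependent antagonist, had 15.5, 13.6 and 15.2 CPM in control 5w, 76.2, 38.2 and 58.2 in HFpEF, 37.8, 37.1 and 46.6 in control 9w, 40.3, 69.6 and 28.8 in untreated, 24.5 and 52.7 in EMPA, 29.1 and 28.2 in PFD, and 20.0, 25.5 and 19.3 in EMPA + PFD. Control 5w lay below every other group, EMPA + PFD came next and did not overlap PFD above it, and the 5 remaining groups overlapped in order up to HFpEF.

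Read against each other in the same library, Angpt2 counts divided by Angpt1 counts gave 0.699, 0.907 and 0.990 in control 5w, and 0.676, 0.447 and 0.332 in EMPA + PFD. In the other groups the ratio was higher: 8.70, 6.22 and 8.69 in HFpEF, 4.59, 12.1 and 2.80 in control 9w, 2.73, 8.40 and 5.35 in untreated, 4.09 and 8.86 in EMPA, and 3.06 and 1.58 in PFD. No library of control 5w or EMPA + PFD reached 1, and no library of any other group fell below it, so the ratio was low in the week 5 controls and in hearts given both drugs. The mean log2 ratio was -0.22 ± 0.26 (SD, n = 3) in control 5w, 2.96 ± 0.28 in HFpEF and -1.11 ± 0.515 in EMPA + PFD. The ratio was described and not tested.

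**Figure D2:**
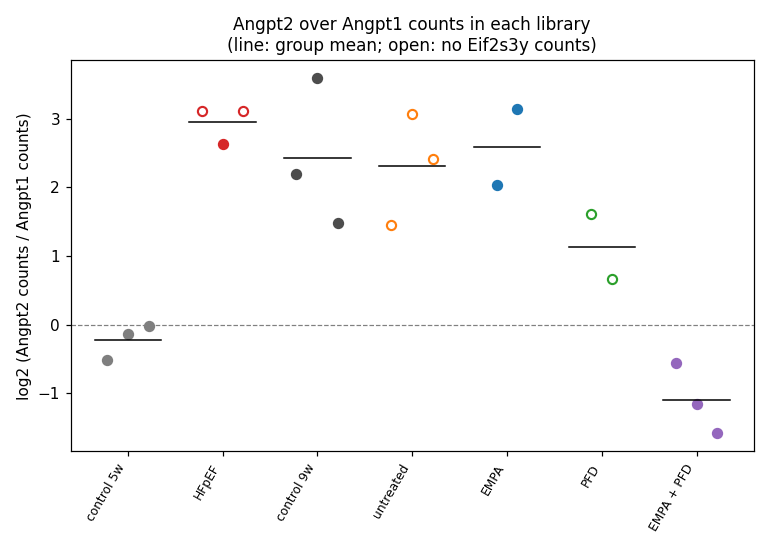
The plot shows log2 of Angpt2 counts over Angpt1 counts for each of the 19 libraries by group, with a line at each group mean, a dashed line at equal counts and open points for libraries with 0 Eif2s3y counts. The libraries of control 5w (-0.52 to -0.02) and of EMPA + PFD (-1.59 to -0.56) lie below the dashed line and all other libraries above it.

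Tek, the angiopoietin receptor, had 188, 166 and 191 CPM in control 5w, 178, 438 and 304 in HFpEF, 396, 395 and 356 in control 9w, 330, 345 and 345 in untreated, 347 and 254 in EMPA, 278 and 290 in PFD, and 247, 184 and 183 in EMPA + PFD. Control 9w lay above untreated, the next group down by mean, without overlap, and EMPA + PFD lay below PFD without overlap. HFpEF spanned these groups, with HFpEF 1 (178 CPM) below every EMPA + PFD library and HFpEF 2 (438 CPM) above every control 9w library. Tie1, the orphan partner of Tek, had 259, 243 and 287 CPM in control 5w, 218, 660 and 412 in HFpEF, 522, 674 and 420 in control 9w, 429, 437 and 548 in untreated, 376 and 285 in EMPA, 391 and 428 in PFD, and 289, 226 and 240 in EMPA + PFD. As for Tek, the lowest means belonged to EMPA + PFD (252 CPM) and control 5w (263) and the highest to control 9w (539), and HFpEF 2 stood far above HFpEF 1 for both receptors.

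The first comparison asked how the healthy heart differed between week 5 and week 9. Between control 5w and control 9w, 5 of the 10 members rose and 0 fell, where 34.5% of all genes were called, 2148 higher and 2128 lower. The members' median log2 fold change was 1.05, beside -0.04 over all genes. Angpt2 rose by 1.46 ± 0.32 (SE; edgeR adjusted p = 0.00398), Flt1 by 1.22 ± 0.26 (0.00319), Vegfa by 1.21 ± 0.36 (0.0197), Tek by 1.07 ± 0.24 (0.00386) and Tie1 by 1.03 ± 0.29 (0.0145), each without overlap between the groups. Pgf also lay above without overlap, with a log2 fold change of 1.29 ± 0.50 that was not called (edgeR adjusted p = 0.0592; 0.0307 with DESeq2), and Angpt1 had -0.90 ± 0.47 (0.154). Vegfc did not overlap either (0.63 ± 0.29, edgeR adjusted p = 0.107), which makes 7 of 10 members beside 49.4% of all genes. Both groups hold Eif2s3y counts in every library, but control 9w has RT1-CE16 counts and control 5w has nearly none. The endothelial markers moved alongside: 9 of 10 rose, with a median of 1.34. This list holds the members Tie1, counted among the 9, and Kdr, which was not called. The others that rose included Cldn5 (2.80 ± 0.35), a tight junction protein, Esam (1.73 ± 0.26) and Pecam1 (1.56 ± 0.21), both adhesion molecules. Fibroblast markers fell in 6 of 8, led by Col1a1 (-4.30 ± 0.96), with sums of 4505, 44963 and 36468 CPM in control 5w and 4324, 3073 and 4606 in control 9w. Leukocyte markers fell in 4 of 8, with sums, led by Lyz2, of 495, 1837 and 1462 CPM against 298, 249 and 325, and the part of these cell types was not tested.

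The count between the control groups was 3 without control 5w 2 or without control 9w 2, where Vegfa (edgeR adjusted p = 0.0821 and 0.107) and Tie1 (0.0530 and 0.0716) were lost. Vegfa was also lost without control 5w 3 (edgeR adjusted p = 0.0689), and leaving out HFpEF 1 added Pgf (0.0409) and Kdr (0.0447). Pgf was called without EMPA + PFD 1 (edgeR adjusted p = 0.0391) and Angpt1, which then fell by 1.62, without control 9w 3 (0.0214). Flt1, Angpt2 and Tek stayed called in all 28 alternative settings, although the one without high Myl4 libraries has 1 control 9w library and takes its spread from other groups. With a term for libraries without Eif2s3y counts the same 5 members were called. Every library of both control groups holds such counts, so this term could not adjust the difference between them and is no check on it.

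In the endothelium's own transcription factors, 8 of 10 rose between control 5w and control 9w and 0 fell, with a median of 1.38. Sox17, which marks arterial endothelium, rose by 3.05 ± 0.19, Gata2 by 2.49 ± 0.30 and Klf4, a shear-responsive factor, by 1.58 ± 0.20. Of the 15 tip cell and Notch genes that answer VEGF, 5 rose and 3 fell. Notch1 (1.41 ± 0.23), Notch4 (1.58 ± 0.31) and the guidance receptor Robo4 (2.31 ± 0.40) rose, whereas Unc5b (-0.82 ± 0.22), Cxcr4 (-1.43 ± 0.41) and the calcineurin regulator Rcan1 (-1.14 ± 0.42) fell. Among the other VEGF family genes, Flt4 rose by 1.03 ± 0.25 and the ligand Vegfd fell by 1.63 ± 0.43, and Ptprb, the phosphatase that restrains Tek, rose by 1.31 ± 0.18. Of the 21 signal transducers tested, 5 rose and 4 fell, with Nos3, the endothelial nitric oxide synthase, up by 1.51 ± 0.29 and Prkca, a protein kinase C, down (-1.26 ± 0.28).

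Oxygen sensing genes split over the same interval. Epas1, the hypoxia-inducible factor of endothelium, rose by 1.10 ± 0.22, Hif3a by 2.89 ± 0.92 and Egln2 by 0.33 ± 0.11, while the hydroxylases Hif1an (-1.80 ± 0.23) and Egln3 (-1.81 ± 0.40) fell, making 3 up and 2 down of 8 tested. Of the 12 hypoxia targets, 3 rose, led by Adm (1.93 ± 0.19), a vasodilator peptide, and 4 fell, among them the glycolytic enzymes Eno1 (-1.03 ± 0.27) and Pgk1 (-1.18 ± 0.33). Vegfa, itself a hypoxia target, therefore rose while that list went both ways (median -0.65).

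**Figure D3:**
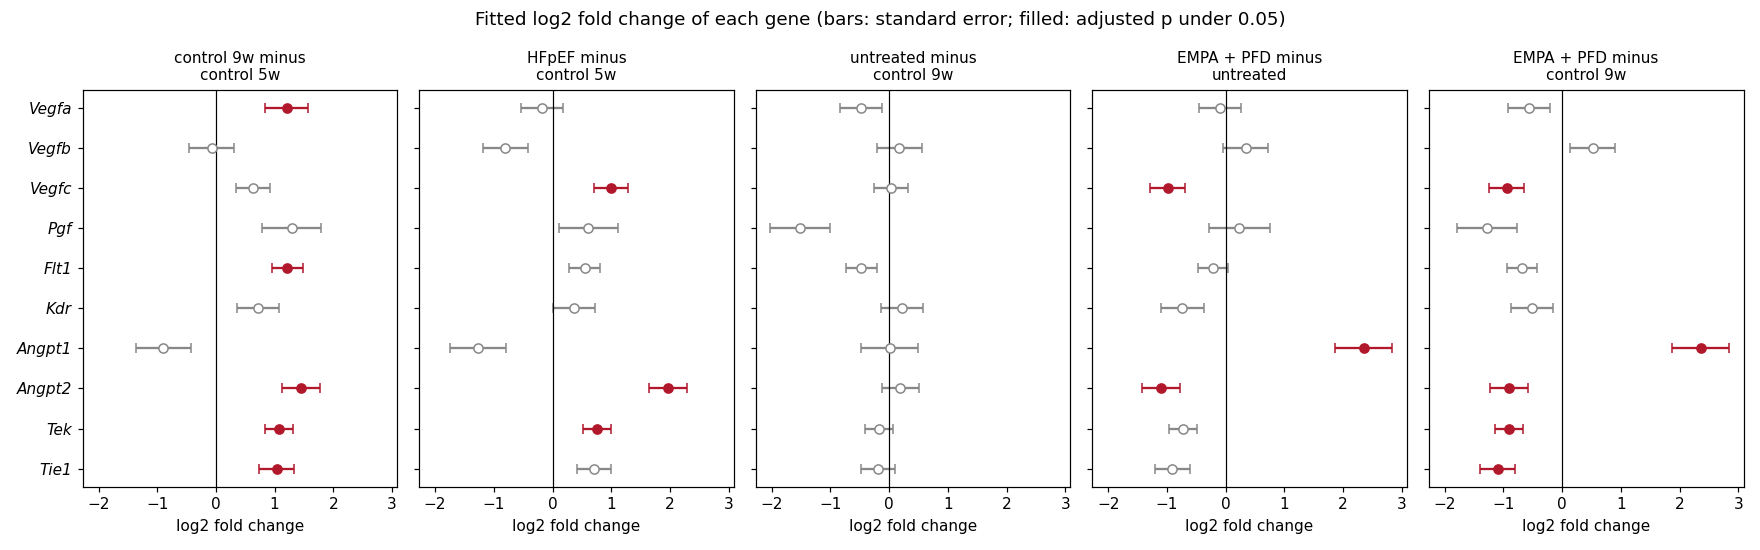
Each panel plots the fitted log2 fold change of the 10 genes in 1 comparison, with bars for the standard error and filled points where the edgeR adjusted p was under 0.05. In control 9w against control 5w the called genes lie between 1.03 and 1.46, in untreated against control 9w no point is filled, and Angpt1 lies at 2.35 and 2.36 in EMPA + PFD against untreated and against control 9w.

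The second comparison addressed the onset of disease at week 5. In HFpEF against control 5w, 3 members rose and 0 fell, where 20.0% of all genes were called, and the members' median was 0.58 beside 0.02 over all genes. Angpt2 rose by 1.96 ± 0.33 (edgeR adjusted p = 0.00195) and Vegfc by 0.99 ± 0.29 (0.0294), both without overlap. Tek rose by 0.75 ± 0.24 (edgeR adjusted p = 0.0367), although HFpEF 1 fell within the control range. Angpt1 was lower in every HFpEF library, with -1.28 ± 0.48 that was not called (edgeR adjusted p = 0.0704; 0.0368 with DESeq2). These 3 members without overlap compare with 37.7% of all genes. Vegfa (-0.18 ± 0.36), Vegfb (-0.80 ± 0.39), Flt1 (0.55 ± 0.26), Kdr (0.36 ± 0.36), Pgf (0.61 ± 0.50) and Tie1 (0.71 ± 0.29) were not called.

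This count rested on single hearts. It was 1 (Angpt2) without any 1 of the 3 control 5w libraries and without HFpEF 2 or 3, where Vegfc had an edgeR adjusted p between 0.0575 and 0.103 and Tek between 0.0656 and 0.192. Without HFpEF 1 it was 5, with Flt1 (edgeR adjusted p = 0.0217) and Tie1 (0.0119) added, and Angpt1 was called without control 9w 2 (0.0347) or control 9w 3 (0.0414), which are in neither group and enter through the shared fit. With only HFpEF 2, the library that holds Eif2s3y counts, 4 members were called: Angpt2 (1.37 ± 0.40), Vegfc (1.30 ± 0.38), Tek (1.27 ± 0.19) and Tie1 (1.33 ± 0.24), with that lone library assumed to vary like the other groups. Tek also lost its call with only the libraries of these 2 groups (edgeR adjusted p = 0.186), with the replicate block (0.0610) and without the libraries of over 1000 Myl4 counts (0.0560).

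Beside the members in this comparison, 6 of 10 endothelial markers rose (median 0.80), led by Cldn5 (2.18 ± 0.34), Esam (1.17 ± 0.26) and Eng (0.82 ± 0.20), and 6 of 10 endothelial transcription factors rose, led by Sox17 (1.63 ± 0.18), Klf4 (edgeR adjusted p = 0.000742) and Klf2 (1.38 ± 0.25). Ptprb rose by 0.87 ± 0.18. Of the 5 lymphatic endothelial markers tested, 3 rose, Ccl21 (3.38 ± 0.71), Lyve1 (2.09 ± 0.57) and the VEGF-C receptor Flt4 (1.09 ± 0.25), and Prox1 fell by 1.29 ± 0.30. Their sum, in which Ccl21 is the most abundant gene over all libraries, was 120, 186 and 108 CPM in control 5w and 1175, 286 and 486 in HFpEF, highest in HFpEF 1. Of the 5 genes of the PGC-1alpha and ERR list, regulators of oxidative metabolism that can also drive Vegfa, 3 fell: Esrrg (-2.03 ± 0.31), Esrrb (-3.05 ± 0.50) and Ppargc1a (-1.91 ± 0.38). The hypoxia targets Ndrg1 (1.68 ± 0.19), Adm (1.02 ± 0.19) and Pfkfb3 (0.78 ± 0.21) rose while Pgk1 (-1.11 ± 0.33) and Ldha (-0.94 ± 0.30) fell. Cardiomyocyte markers fell in 3 of 10, and their sums were 92071, 38156 and 42883 CPM in control 5w against 11931, 22486 and 35362 in HFpEF. All 3 mesothelial markers tested rose, led by Upk1b (3.68 ± 0.86), and the part of these cell types in the members' values was not tested.

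At week 9 the same disease contrast gave a different set of values. In untreated against control 9w, edgeR called 0 members, where 1.78% of all genes were called (220 of 12388), 1 member had an unadjusted p under 0.05, and DESeq2 called 1, Pgf. The members' median was -0.08 beside 0.01 over all genes. Pgf lay below control 9w in every untreated library, by -1.52 ± 0.51 (edgeR adjusted p = 0.127), and so did Tek (-0.17 ± 0.23), where 23.0% of all genes did not overlap. Vegfa (-0.47 ± 0.36) and Flt1 (-0.47 ± 0.26) came next in size, and the log2 fold changes of the other 7 lay between -0.19 and 0.22, with that of Angpt1 (0.01) turning negative under relative log expression scaling. A few neighbours in the pathway were called: Foxo1, the factor that drives Angpt2 and that Tek signaling restrains, rose by 0.70 ± 0.14, the netrin receptor Unc5b rose by 1.06 ± 0.22, and Adm (-1.04 ± 0.19) and Sox17 (-1.26 ± 0.17) fell. No endothelial marker was called, with a median of -0.21. Of the markers of other cell types, the erythroid genes Hbb (-2.65 ± 0.59) and Alas2 (-2.92 ± 0.63) fell and the leukocyte gene Cd3e (2.50 ± 0.57) rose. Erythroid marker sums were 1181 to 1833 CPM in control 9w and 186 to 306 in untreated, and their part in the members' values was not tested. With the Eif2s3y term, which only the HFpEF libraries inform, the count of members was also 0. Every untreated library lacks these counts and every control 9w library holds them, so the term cannot separate disease from that split.

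Whether the disease difference itself differed between the weeks was tested as the week 9 difference minus the week 5 difference. There 2 of the 10 members passed, the same share as the 20.0% of all genes that did: Angpt2 (-1.77 ± 0.45, edgeR adjusted p = 0.0148) and Pgf (-2.13 ± 0.71, 0.0480). The members' median was -0.91 beside -0.02 over all genes. Angpt2 was 1.96 higher in disease at week 5 and 0.19 higher at week 9, where control 9w had itself come up to 37.1 to 46.6 CPM. Pgf differed by 0.61 at week 5 and by -1.52 at week 9. Flt1 (-1.02 ± 0.36, edgeR adjusted p = 0.0602) and Tek (-0.92 ± 0.33, 0.0617) were not called, though DESeq2 called both. Angpt2 kept its call without each single library but not without both HFpEF libraries that lack Eif2s3y counts (-1.18 ± 0.50, edgeR adjusted p = 0.124), where Flt1, Tek and Tie1 were called instead; with the Eif2s3y term Pgf and Angpt2 were called. Pgf was lost in 13 of the 19 fits that leave out 1 library, namely without any control 5w or control 9w library, HFpEF 1 or 3, untreated 1 or 3, PFD 1 or 2, or EMPA + PFD 2, with an edgeR adjusted p from 0.0526 to 0.124. The count was 1 (Angpt2) without control 5w 2 or 3, HFpEF 3, control 9w 1 or 2, untreated 1 or 3, PFD 1 or 2, or EMPA + PFD 2, and 4 without HFpEF 1 (Flt1, Angpt2, Tek and Tie1). Flt1 was also called without control 5w 1 (edgeR adjusted p = 0.0467) or control 9w 3 (0.0439), Vegfb without untreated 2 (0.0406) and Angpt1 without control 9w 3 (0.0382). Only the HFpEF libraries inform the Eif2s3y term in this test as well.

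Untreated and HFpEF hearts, 4 weeks apart, were also set side by side. RT1-CE16 separates these groups, with at most 3 counts in HFpEF and 583, 684 and 616 in untreated. Here edgeR called 0 members, where 0.226% of all genes were called (28 of 12388), 2 members had an unadjusted p under 0.05 and DESeq2 called 0. Vegfa lay above HFpEF in every untreated library (0.91 ± 0.36, edgeR adjusted p = 0.164), where 19.1% of all genes did not overlap, and Vegfb had 0.90 ± 0.39 (0.189). Without untreated 2, Vegfb was called and the count was 1 (1.26 ± 0.34, edgeR adjusted p = 0.0287).

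The treatment comparison set EMPA + PFD against untreated hearts at week 9. It gave 1 member that rose and 2 that fell, where 12.1% of all genes were called, and the members' median was -0.48 beside -0.03 over all genes. Angpt1 rose by 2.35 ± 0.48 (edgeR adjusted p = 0.0129), from 14.8, 8.28 and 5.37 CPM to 29.6, 57.0 and 58.2. Angpt2 fell by 1.10 ± 0.32 (edgeR adjusted p = 0.0406) and Vegfc by 0.98 ± 0.30 (0.0459), again without overlap. Tek (-0.73 ± 0.24) and Tie1 (-0.91 ± 0.29) also lay below untreated in every library and missed the threshold with an edgeR adjusted p of 0.0556 for both, while DESeq2 called them at 0.0265 and 0.0234. Kdr (-0.74 ± 0.36) lay below without overlap too (edgeR adjusted p = 0.171), which makes 6 of 10 members beside 37.4% of all genes, and Vegfa (-0.10 ± 0.36), Vegfb (0.34 ± 0.38), Pgf (0.24 ± 0.51) and Flt1 (-0.22 ± 0.26) overlapped.

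The treatment calls changed with single libraries, and the count moved by more than 1.5 times in 11 of the 19 fits that leave out 1. It was 0 without untreated 2 or without EMPA + PFD 2, where Angpt1 had an edgeR adjusted p of 0.0621 and 0.0630. It was 1 (Angpt1) without control 5w 2 or 3, HFpEF 3, control 9w 1, PFD 1 or 2, or EMPA + PFD 3, and 5 without HFpEF 1 or 2, where Tek and Tie1 were added. Over the single libraries that ended its call, Vegfc had an edgeR adjusted p from 0.0560 to 0.192, untreated 1 and 3 among them (0.0570 and 0.0874, count 2), and Angpt2 from 0.0502 to 0.221, EMPA + PFD 1 among them (0.0776). Tek was called without EMPA + PFD 1 (edgeR adjusted p = 0.0432). Without the libraries of over 1000 Myl4 counts only Angpt1 was called (2.26 ± 0.44, edgeR adjusted p = 0.0496), and with only these 2 groups in the fit the count was 0, with 0.0828 for Angpt1. The replicate block left Angpt1 alone as well. With a term for libraries without Eif2s3y counts, which only the HFpEF libraries inform, Tek (-1.59 ± 0.32, edgeR adjusted p = 0.0294) and Tie1 (-1.97 ± 0.40, 0.0291) were called, and Angpt1 (2.68 ± 0.94, 0.105), Vegfc (-1.47 ± 0.51, 0.102) and Angpt2 (-0.29 ± 0.52, 0.784) were not.

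Around the members, the treatment comparison called 2 of 10 endothelial markers, both lower (median -0.75): Eng (-1.20 ± 0.20) and Egfl7 (-1.08 ± 0.31), a secreted vessel protein. Of the endothelial transcription factors 4 of 10 fell, among them Klf4 (-0.87 ± 0.19), Ets1 (-0.89 ± 0.25) and Fli1 (-0.52 ± 0.15). Nrp2, the co-receptor that binds VEGF-C, fell by 0.83 ± 0.20, and 3 tip cell and Notch genes fell: Unc5b (-1.08 ± 0.22), the Notch ligand Jag1 (-1.24 ± 0.28) and the tip cell proteoglycan Esm1 (-2.05 ± 0.55). In the other direction, the transducers Pik3r1 (1.36 ± 0.32) and Map2k1 (0.48 ± 0.13) rose, as did Hif1an (1.39 ± 0.22) and the metabolic regulators Ppargc1a (2.04 ± 0.37), Esrrg (1.57 ± 0.30) and Esrrb (2.01 ± 0.46). None of the 12 hypoxia targets was called by edgeR. Cardiomyocyte marker sums were 72787, 20121 and 58361 CPM in untreated and 72680, 106563 and 88413 in EMPA + PFD, and atrial marker sums, led by Nppa, were 1116, 16016 and 1618 against 1594, 2665 and 1701. Myl4 was called lower (-7.00 ± 2.16), a difference that rests on untreated 2. Its counts were 41, 19668 and 46 in untreated and 34, 35 and 41 in EMPA + PFD.

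Neither drug alone moved a member past the test. In EMPA against untreated, edgeR called 0 members and 0.0404% of all genes (5 of 12388), 0 members had an unadjusted p under 0.05 and DESeq2 called 0. The largest values were those of Pgf (1.03 ± 0.56, edgeR adjusted p = 0.641) and Vegfc (-0.69 ± 0.34, 0.606). Both Eif2s3y and RT1-CE16 separate these groups, with 0 RT1-CE16 counts in EMPA 1 and 2 and 583, 684 and 616 in untreated. In PFD against untreated, whose libraries all lack Eif2s3y counts, edgeR called 0 members and 0.00807% of all genes (1 gene), 0 members had an unadjusted p under 0.05 and DESeq2 called 0. Angpt2 (-0.69 ± 0.36) and Angpt1 (0.53 ± 0.53) had the largest values there, with an edgeR adjusted p of 0.786 and 0.797, and Pgf (0.02) changed sign under upper quartile scaling.

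EMPA + PFD was also set against each drug alone. In EMPA + PFD against EMPA 1 of the 10 members rose and 0 fell, a share near the 9.71% of all genes called. Every library of both groups has Eif2s3y counts, but RT1-CE16 separates them, with 0 counts in EMPA 1 and 2 and 426, 308 and 720 in EMPA + PFD. Angpt1 rose by 3.01 ± 0.60 (edgeR adjusted p = 0.0151) from 5.99 and 5.95 CPM, and the call was lost without EMPA 1 (0.0814) or EMPA 2 (0.124), each of which leaves 1 EMPA library. The members' median was -0.44 beside -0.05 over all genes. In EMPA + PFD against PFD, edgeR called 0 members and 0% of all genes, 3 members had an unadjusted p under 0.05 and DESeq2 called 0 members. Angpt1 had 1.82 ± 0.55 without overlap (edgeR adjusted p = 0.274), and Vegfc, Flt1, Kdr, Angpt2, Tek and Tie1 lay below PFD in every library, so that 7 of 10 members did not overlap, beside 33.8% of all genes in this comparison of 3 libraries with 2. The test of whether the effect of EMPA depends on PFD called 0 members by edgeR and 0.00807% of all genes, with 1 member at an unadjusted p under 0.05 and 0 by DESeq2. That member was Angpt1, with 2.48 ± 0.78 (edgeR adjusted p = 0.401).

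Against the hearts sampled before treatment, EMPA + PFD differed in 5 members, 2 higher and 3 lower, where 46.8% of all genes were called. Angpt1 rose by 2.74 ± 0.49 (edgeR adjusted p = 0.000941) and Vegfb by 1.25 ± 0.39 (0.0181). Angpt2 fell by 1.42 ± 0.32 (edgeR adjusted p = 0.00329), Vegfc by 1.31 ± 0.30 (0.00347) and Tie1 by 0.77 ± 0.29 (0.0414), with Tie1 overlapping through HFpEF 1. Vegfa lay above HFpEF in every library though not called, and the 5 members without overlap compare with 54.7% of all genes. The members' median was -0.37 beside -0.09 over all genes, and upper quartile scaling moved the latter by -0.11. With HFpEF 2 alone standing for HFpEF, Vegfc, Angpt1, Tek and Tie1 were called, and Vegfb (1.11 ± 0.55, edgeR adjusted p = 0.151) and Angpt2 (-0.82 ± 0.40, 0.149) were not. The term for libraries without Eif2s3y counts, which only the HFpEF libraries inform, called the same 4, with Vegfb at an edgeR adjusted p of 0.183 and Angpt2 at 0.141. Vegfb was lost without HFpEF 1 (edgeR adjusted p = 0.0764). Tie1 was lost without HFpEF 2 or 3, control 9w 1, untreated 3, either PFD library or any EMPA + PFD library (edgeR adjusted p from 0.0507 to 0.306), and Tek was called without HFpEF 1 (0.00446) or EMPA + PFD 1 (0.0420). Tie1 was also lost with only the libraries compared (edgeR adjusted p = 0.149), with the replicate block (0.0686) and without the high Myl4 libraries (0.0528). Beside these, 8 of 10 cardiomyocyte markers and all 5 PGC-1alpha and ERR genes rose, led by Ryr2 (2.36 ± 0.34) and Esrrg (2.68 ± 0.32). Of 10 endothelial markers 3 fell, led by Eng (-1.04 ± 0.20), with the member Tie1 counted among the 3. Marker sums in HFpEF and EMPA + PFD were 9629 to 17219 and 2095 to 4671 CPM for fibroblasts, 476 to 2392 and 235 to 322 for leukocytes, and 1435 to 3969 and 143 to 481 for erythroid cells. RT1-CE16 also separates these groups, with at most 3 counts in HFpEF and at least 308 in EMPA + PFD. The part of these differences in the members' values was not tested.

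A comparison chosen after the data were seen set EMPA + PFD against control 9w, both with Eif2s3y and RT1-CE16 counts in every library. It gave 1 member up and 4 down, where 33.8% of all genes were called, with a members' median of -0.80 beside -0.08. Angpt1 rose by 2.36 ± 0.48 (edgeR adjusted p = 0.00298), from 8.23, 3.07 and 16.7 CPM to 29.6, 57.0 and 58.2, and kept its call in all 28 alternative settings, of which the one without high Myl4 libraries has 1 control 9w library. Tek fell by 0.90 ± 0.24 (edgeR adjusted p = 0.0104), Tie1 by 1.10 ± 0.29 (0.0113), Vegfc by 0.95 ± 0.30 (0.0256) and Angpt2 by 0.91 ± 0.32 (0.0404). Flt1 (-0.69 ± 0.26, edgeR adjusted p = 0.0505) and Pgf (-1.28 ± 0.51, 0.0640) lay below in every library and were called by DESeq2. Vegfb lay above in every library (0.52 ± 0.39, edgeR adjusted p = 0.317), and Vegfc overlapped although called, so that 7 of 10 members did not overlap, beside 51.2% of all genes. Endothelial markers fell in 9 of 10 (median -1.07), led by Eng (-1.44 ± 0.20), Pecam1 (-1.06 ± 0.21) and Emcn (-1.30 ± 0.32). The member Tie1 is counted among the 9, and the member Kdr, also on that list, was not called. Endothelial transcription factors fell in 9 of 10, led by Sox17 (-1.50 ± 0.17). Other cell types moved too. Of 10 cardiomyocyte markers 5 rose, led by Ryr2 (1.34 ± 0.33), with sums of 37601, 43114 and 41525 CPM in control 9w and 72680, 106563 and 88413 in EMPA + PFD. Of 5 erythroid markers 4 fell, led by Hbb (-2.58 ± 0.59), with sums of 1535, 1833 and 1181 CPM against 143, 481 and 213. Of 6 atrial markers 4 fell, with sums from 746 to 25632 CPM in control 9w and from 1594 to 2665 in EMPA + PFD. The high Myl4 counts of control 9w were in control 9w 1 and 3 only. The part of these cell types in the members' values was not tested. This and the treatment comparison share the EMPA + PFD libraries.

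The count against control 9w was 2 (Angpt1 and Tek) without control 9w 2 and 1 (Angpt1) without EMPA + PFD 2. Vegfc was lost without those libraries (edgeR adjusted p = 0.153 and 0.112) or EMPA + PFD 3 (0.1002), Tie1 without control 9w 2 (0.0558) or EMPA + PFD 2 (0.0529), and Tek without EMPA + PFD 2 (0.0523). Angpt2 was lost without any control 9w or EMPA + PFD library, control 5w 3, PFD 1 or PFD 2 (edgeR adjusted p from 0.0507 to 0.124), and with the replicate block (0.0517). With only the libraries compared Vegfc was lost (edgeR adjusted p = 0.0617). Flt1 was called without control 5w 1, HFpEF 1, HFpEF 3, control 9w 3 or untreated 2 (edgeR adjusted p from 0.0136 to 0.0489), and Pgf without control 5w 1, HFpEF 1 or EMPA + PFD 3 (from 0.0378 to 0.0485). Without the libraries of over 1000 Myl4 counts, which leaves control 9w 2 alone in its group with the spread taken from other groups, Vegfc, Angpt1 and Tie1 were called, and Tek (edgeR adjusted p = 0.0704) and Angpt2 (0.169) were not. With the Eif2s3y term the same 5 members were called as in the fit above. Every library of both groups holds Eif2s3y counts, so that term could not adjust this difference and is no check on it.

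Side by side, Angpt1 was the member with the largest difference wherever EMPA + PFD was compared, at 2.35 against untreated, 3.01 against EMPA, 1.82 against PFD (not called), 2.74 against HFpEF and 2.36 against control 9w, comparisons that share the EMPA + PFD libraries. Its level there was also above the week 5 controls, where it had 22.2, 15.0 and 15.4 CPM. Angpt2 and Vegfc both rose in HFpEF at week 5, and in the hearts given both drugs Angpt2 had the lowest mean after control 5w (21.6 against 14.8 CPM) and Vegfc the lowest of all (15.6 CPM). At week 9 neither was called in untreated against control 9w (0.19 ± 0.31 for Angpt2 and 0.04 ± 0.29 for Vegfc). In EMPA + PFD against untreated, which also differ by the Eif2s3y split, Angpt2 lost its call in 14 and Vegfc in 15 of 28 alternative settings. Kdr was not called in any comparison of groups in the fit of all libraries, and Flt1 and Vegfa, called over the 7 groups together, were called in that fit between the control groups and in no other comparison, with Vegfa at 0.81 ± 0.36 in EMPA + PFD against HFpEF (edgeR adjusted p = 0.0756).

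Across the 19 libraries the receptors moved together. Log2 CPM of Tek and Tie1 correlated with r = 0.94 (rho = 0.91), Flt1 with Tek at r = 0.81 (rho = 0.85) and Kdr with Tek at r = 0.81 (rho = 0.78), and Vegfa went with Kdr (r = 0.82, rho = 0.70) and Flt1 (r = 0.80, rho = 0.64). Angpt1 ran opposite to Vegfc (r = -0.69, rho = -0.58), Tie1 (r = -0.67, rho = -0.58), Tek (r = -0.64, rho = -0.61), Angpt2 (r = -0.50, rho = -0.48) and Kdr (r = -0.42, rho = -0.65), with Kdr the closest by rank. These 19 points share groups, week and library composition, so the values are a description of the 45 pairs with no test.

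Genes whose log2 CPM followed a member closely over the 19 libraries differed by member. Vegfa went with the myosin gene Myh7b (r = 0.96, rho = 0.94), Arhgap21 (r = 0.96) and Dhx35 (r = 0.94), and Vegfb with RGD1302996 (r = 0.99), the complex I subunit Ndufs3 (r = 0.98) and the mitochondrial gene Chchd10 (r = 0.98). Flt1 went with Prom1 (r = 0.97), Notch4 (r = 0.97) and Helz2 (r = 0.95), Kdr with Ablim3 (r = 0.95), Fbxo41 (r = 0.94) and Pdcd1lg2 (r = 0.94), Tek with Lats2 (r = 0.97), Tmem204 (r = 0.96) and Map4k2 (r = 0.96), and Tie1 with the endothelial factor Erg (r = 0.95), Tmod3 (r = 0.95) and Slc9a3r2 (r = 0.95). Angpt1 went with Scamp1 (r = 0.94) and Ppp3r1 (r = 0.91), and Angpt2 with Emd (r = 0.90), Csrp1 (r = 0.88) and Cyp2j3 (r = 0.87). Vegfc went with Akr1c14 (r = 0.91), Sipa1 (r = 0.89) and Adgre5 (r = 0.88), and Pgf with Erf (r = 0.92), Clcn7 (r = 0.91) and Gas5 (r = 0.89).

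RefSeq's table for the build GRCr8 held promoter windows, from 250 bases before to 50 bases after a gene's start, for 7 of the 10 members, and none was given for Angpt1, Angpt2 or Tek. The windows of Vegfa, Flt1 and Tie1 are printed because these members rose together between the control groups. The Vegfa window lies at chr9:22452604-22452903 on the plus strand, at the start of the annotated gene (chr9:22452854-22468194), and is the first of 2 Vegfa windows in the table. That of Flt1 lies at chr12:12333180-12333479 on the plus strand, inside the annotated span of the gene (chr12:12333050-12504750), and that of Tie1 at chr5:137304932-137305231 on the minus strand, across the end of its annotated span (chr5:137285408-137305047). Capitals mark the hypoxia response core (ACGTG or GCGTG), the core bound by ETS factors (GGAA) and the cAMP response element (TGACGTCA), searched on both strands.
Vegfa: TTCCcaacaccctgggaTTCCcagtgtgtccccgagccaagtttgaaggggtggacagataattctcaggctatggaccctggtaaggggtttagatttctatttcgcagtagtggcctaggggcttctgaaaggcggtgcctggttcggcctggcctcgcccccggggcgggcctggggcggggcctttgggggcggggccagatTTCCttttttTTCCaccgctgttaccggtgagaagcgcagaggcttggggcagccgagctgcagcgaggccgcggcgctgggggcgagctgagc
Flt1: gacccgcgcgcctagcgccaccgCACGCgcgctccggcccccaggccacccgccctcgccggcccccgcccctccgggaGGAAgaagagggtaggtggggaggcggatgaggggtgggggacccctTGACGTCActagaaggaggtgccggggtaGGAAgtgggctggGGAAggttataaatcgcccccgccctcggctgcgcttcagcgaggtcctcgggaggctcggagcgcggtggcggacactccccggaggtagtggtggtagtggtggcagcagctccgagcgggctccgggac
Tie1: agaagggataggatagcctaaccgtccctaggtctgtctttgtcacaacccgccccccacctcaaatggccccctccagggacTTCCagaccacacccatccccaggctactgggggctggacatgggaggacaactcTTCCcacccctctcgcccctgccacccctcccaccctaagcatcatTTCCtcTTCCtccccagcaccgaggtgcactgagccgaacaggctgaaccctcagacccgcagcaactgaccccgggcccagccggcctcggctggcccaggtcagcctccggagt

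Among 33469 windows of this length in the table, 41.6% hold the hypoxia response core, 95.8% the ETS core and 1.83% the cAMP response element. The printed Vegfa window has 0 hypoxia cores and 4 ETS cores, that of Flt1 has 1 hypoxia core, 3 ETS cores and 1 cAMP response element, 124 bases before the start, and that of Tie1 has 0 hypoxia cores and 4 ETS cores. Of the windows not printed, Kdr holds 2 hypoxia and 5 ETS cores, Pgf 1 and 3, Vegfb 1 and 1, and Vegfc 0 and 1. A GC box (GGGCGG) was also counted, without capitals, with 3 matches in the Vegfa window, 3 in that of Flt1 and 1 in that of Tie1, and is held by 33.1% of windows. A match describes these letters only. In GRCr8 the genes Flt1, Angpt1, Angpt2 and Tie1 overlap other annotated genes, Mcph1 in the case of Angpt2, and the strand setting of the counting is not given in the sources used here, so reads shared with those genes cannot be told apart.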

How the data were processed

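Gene counts deposited by the authors for each library were used as given; the authors trimmed with Trim Galore, checked reads with FastQC, aligned with HISAT2 to rn6, counted with htseq-count and analysed with DESeq2 through iDEP, and the sources read here give no versions of Trim Galore, FastQC, HISAT2 or htseq-count, and no annotation release, overlap mode or strand setting. The authors excluded an EMPA and a PFD sample for corrupted files. The members and the gene lists around them were chosen with earlier results of these data known.

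All 19 libraries in 7 groups entered 1 model in edgeR 4.0.16 (R 4.3.3, limma 3.58.1), with scaling by trimmed mean of M values, edgeR's own filter on low counts (12388 of 17455 genes kept), and the quasi-likelihood test with Benjamini-Hochberg adjustment over all genes kept, called at 0.05. Standard errors are the absolute log2 fold change over the square root of F. P-values measure the spread between these samples. The code was tested on simulated data.

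Also run were other scalings, other filters, DESeq2 1.42.0, a fold of at least 2, only the libraries compared, a replicate block, each library left out, a term for libraries with no Eif2s3y counts, and HFpEF without its libraries lacking them, a split known from the earlier results. Added after seeing the data were leaving out libraries with over 1000 Myl4 counts and the comparison of EMPA + PFD with control 9w. The promoter motifs were chosen with results and sequences in view. Genes named are all 10 members, for pathway and marker lists some of the changed genes of smallest adjusted p (at most 3 up and 3 down per list and comparison, not all of them named) and a marker list's most abundant gene, and up to 3 genes for likeness. The methods give diet and L-NAME up to the start of treatment, and the discussion speaks of an induction that ran on past it.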

Additional observations from a re-analysis of the deposited data

Results flagged for a closer look

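Between the weeks, 2 of the 10 members passed the test of the disease difference at week 9 minus that at week 5, the same share as the 20.0% of all genes that did: Pgf at -2.13 (edgeR adjusted p = 0.0480) and Angpt2 at -1.77 (0.0148). Pgf lost its call in 18 of 29 alternative settings, and Angpt2 in 1 of 29, without the HFpEF libraries that lack Eif2s3y counts (edgeR adjusted p = 0.124).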

How the results depend on the processing

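Of 409 counts under an alternative, 350 stayed within 1.5 times the count given and 59 moved by more, 43 of them with a replicate left out. With a replicate left out the lowest and highest counts were 3 and 7 for control 9w against control 5w, 1 and 5 for HFpEF against control 5w, 0 and 0 for untreated against control 9w, 0 and 1 for untreated against HFpEF, 0 and 5 for EMPA + PFD against untreated, 0 and 0 for EMPA and for PFD against untreated, 0 and 1 for EMPA + PFD against EMPA, 0 and 0 against PFD, 4 and 5 against HFpEF, 1 and 7 against control 9w, 1 and 4 for the disease difference between weeks, 0 and 0 for the interaction, and 3 and 8 over the 7 groups. The other 16 moved counts were these. HFpEF against control 5w gave 1 with a fold of at least 2, and untreated against control 9w gave 1 with DESeq2. EMPA + PFD against untreated gave 5 with upper quartile scaling, 5 with at least 10 counts in every library, 5 with DESeq2, 0 with only the libraries compared, 1 with the replicate block and 1 without libraries of over 1000 Myl4 counts. The disease difference between weeks gave 1 with no filter beyond 1 count, 4 with at least 10 counts in every library, 4 with DESeq2 and 1 with only the libraries compared. EMPA + PFD against control 9w gave 2 with a fold of at least 2 and 3 without libraries of over 1000 Myl4 counts, and the test over the 7 groups gave 4 with the replicate block and 4 without those libraries. Of 682 log2 fold changes of called members under an alternative, 574 kept direction and call, 108 kept direction only and 0 reversed. Relative log expression scaling turned the sign of Angpt1 in untreated against control 9w (0.01), Vegfb in EMPA + PFD against PFD (-0.01), and Flt1 in EMPA + PFD against HFpEF (-0.02) and in the interaction (0.00), and upper quartile scaling that of Pgf in PFD against untreated (0.02). The replicate numbers do not pair the samples: the median r was -0.067 over 52 pairs of libraries with the same number and 0.038 over 102 others. The cause of the Eif2s3y split was not tested, groups hold 2 or 3 libraries, and L-NAME and diet were given together.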
